A study of Homo sapiens with 19 samples.

Results

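The cytosolic ribosomal protein genes were taken as the protein-coding GENCODE genes whose symbol begins with RPL or RPS followed by a digit, together with RPLP0, RPLP1, RPLP2 and RPSA, and without the RPS6K kinases. This gave 91 of 19969 protein-coding genes. Of these, 85 encode ribosomal proteins: 43 of the large subunit, 31 of the small subunit, 3 of the P-stalk (RPLP0, RPLP1 and RPLP2) and 8 paralogs that sit beside a main gene of similar name (RPL3L, RPL7L1, RPL10L, RPL22L1, RPL26L1, RPL36AL, RPL39L and RPS27L). The other members were 3 readthrough genes, 2 Y-linked genes, which were counted only, and RPS19BP1, which binds RPS19 and is not itself a ribosomal protein. RPL10L has no intron and so gave no spliced reads, which left 84 ribosomal protein genes and RPS19BP1 in the tests.

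Ribosomal proteins coat the ribosomal RNAs and are needed in matched amounts, so their messenger RNAs are among the most abundant of a growing cell. Many of these messages begin with a C followed by a run of pyrimidines, the 5′ terminal oligopyrimidine tract, through which mTOR signalling and LARP1 control their translation. Several members are also known to limit their own output by splicing into forms that carry an early stop codon and are removed by nonsense-mediated decay.

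The study sequenced 19 libraries of human cell line RNA after depletion of ribosomal RNA, to find which isoforms and splice junctions are expressed. A375, a melanoma line, gave 1 library each of total, nuclear and cytoplasmic RNA, the fractions being split by lysis in a low-salt buffer with Triton X-100. A single library came from HEK293, a line from embryonic kidney, and another from wild-type HUES66, stem cells of embryonic origin. The other 14 libraries came from HUES66 cells with 1 ug/ml doxycycline for 24, 48 or 96 hr, with RBFOX2, a splicing regulator, knocked down in all but the controls. They comprised 3 controls, 3 total knockdowns (total KD), 4 N-short knockdowns (N-short KD) and 4 N-long knockdowns (N-long KD). The series title names Cas13d, an RNA-cleaving enzyme that is steered by guide RNAs. The labels give the control genotype as WT, and they give no guide sequence, promoter or number of clones. They do not say that replicates were separate cultures, so p-values measure the spread between these libraries, which may be technical. The 14 libraries formed 4 sets, in which each arm has at most 1 library. The sets at 48 and 96 hr are complete, the 24 hr set of replicate 1 lacks a control and that of replicate 2 lacks a total KD. Total KD can therefore be set against a control in 2 sets, N-short KD or N-long KD against a control in 3, with the 2 isoform knockdowns meeting in 4.

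Libraries held 6499183 to 27937149 junction reads. POU5F1, a defining stem cell gene, stood at 1020 CPM (the gene's junction reads scaled to the total junction reads of the library) in wild-type HUES66 and below 0.6 CPM in the other lines. Of the 7 melanoma markers, SOX10 (100.3 CPM) and MITF (38.99 CPM) marked A375, while MLANA and TYR had no reads. PMEL went the other way, with 0.476 CPM in A375 and 47.9 CPM in wild-type HUES66. HEK293 was highest for EYA1 (33.1 CPM) and NEFM (11.4 CPM), but its LIN28B (29.4 CPM) was matched in HUES66. In the fractions, MALAT1, a nuclear RNA, had a log2 nuclear to cytoplasmic ratio of 4.86 and GAPDH one of -0.98. Other RNAs listed as nuclear were less clear. NEAT1 was at 1.91, PVT1 at 1.89 and TUG1 at 0.56, but JPX was at -0.48 and OIP5-AS1 at -1.42. RBFOX2 itself ranged from 121.8 to 129.5 normalised CPM in the 3 controls and from 49.3 to 79.4 under total KD. Under N-long KD it ranged from 75.1 to 87.6, and under N-short KD from 110.6 to 119.4, close to the controls. Its fitted log2 change in N-short KD was -0.058 (edgeR, SE 0.0691, adjusted p = 0.998).

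A first look at the genes themselves shows the sequence that most of them share. RefSeq promoter records (GRCh38.p14) matched 68 ribosomal protein genes, and 42 of the 62 main genes among them (67.7%) began with C and at least 5 pyrimidines in all, against 4.67% of 14896 protein-coding genes and 7.25% of 69 mitochondrial ribosomal protein genes. The first 20 transcribed bases at the annotated start are given for 5 members with such a run, which is in capitals, and for 3 without one; they were chosen because the nuclear to cytoplasmic ratios or the differences between lines described next turn on them.
RPSA (chr3:39406720-39406739, plus strand): CTTTTCCgtgctacctgcag
RPS12 (chr6:132814569-132814588, plus strand): CTCTTTCCCTgccgccgccg
RPL12 (chr9:127451387-127451406, minus strand): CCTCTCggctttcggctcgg
RPL39 (chrX:119791611-119791630, minus strand): CCCTCCTCTTCCTTTCTCCg
RPL22L1 (chr3:170870176-170870195, minus strand): CTCTCTgctctcgcggccga
RPS26 (chr12:56041918-56041937, plus strand): gattttcttccgccatccgg
RPL7L1 (chr6:42879616-42879635, plus strand): gtagctaggagcggacgcca
RPL26L1 (chr5:172958729-172958748, plus strand): ggcgaacgaaacgcggagct
The pyrimidine run ranged from 6 bases in RPL12 and RPL22L1 to 19 in RPL39. An annotated start can lie some bases from the one that a cell uses, and within 5 bases of it a run was found in 80.6% of main genes and 22.2% of all protein-coding genes.

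In A375 cells the ribosomal protein messages were depleted from the nuclear fraction. Their junction reads made up 10.1% of all junction reads in total RNA, but 6.39% of those of the nuclear library and 17.8% of those of the cytoplasmic library. Of the 83 genes with at least 20 reads, 79 were more than 2-fold lower in the nuclear than in the cytoplasmic library, where 19.1% of 12930 genes were. None was more than 2-fold higher, where 22.9% of all genes were. The median log2 ratio was -1.40 (interquartile range -1.57 to -1.32), beside -0.11 (-0.82 to 0.87) over all genes. Medians were -1.38 for the large subunit, -1.45 for the small subunit, -1.59 for the P-stalk and -1.12 for the 6 paralogs with reads. Each fraction is 1 library, so these ratios have no replicate check, their intervals cover counting error only, and as shares of a library they do not give RNA per cell.

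RPSA, the small-subunit protein also known as the laminin receptor (ENSG00000168028.13, chr3:39406689-39412542), had the lowest ratio, with 676.9 CPM in the nuclear and 3927 CPM in the cytoplasmic library. That is a ratio of 0.172 (exact 95% interval of a ratio of 2 counts 0.167 to 0.178). RPS2, which lines the messenger RNA entry of the small subunit, had 703.0 and 3567 CPM (log2 ratio -2.34). RPS12, another small-subunit protein, had 588.7 and 2881 CPM (-2.29). RPL12, at the base of the stalk, had 1103 and 4715 CPM (-2.10), and RPL13 had 776.7 and 2788 CPM (-1.84). These 5 lay apart from the bulk of the genes, at the low end.

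At the other end stood the paralogs RPL7L1, with 61.2 nuclear and 107.7 cytoplasmic CPM (log2 ratio -0.81), and RPL26L1, with 22.8 and 42.0 CPM (-0.88). RPL39, a short protein of the exit tunnel, had 213.4 and 410.6 CPM (-0.94). RPL5, which carries 5S ribosomal RNA together with RPL11, had 625.3 and 1217 CPM (-0.96), whereas RPL11 itself was at -1.37. RPL22L1 followed with 91.2 and 187.4 CPM (-1.04). In the P-stalk RPLP2 had a log2 ratio of -1.81, RPLP0 of -1.59 and RPLP1 of -1.09. The members nearest to the 2-fold line were RPL22L1 and RPL6 (-1.05) below it and RPL5 above it.

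**Figure D1:**
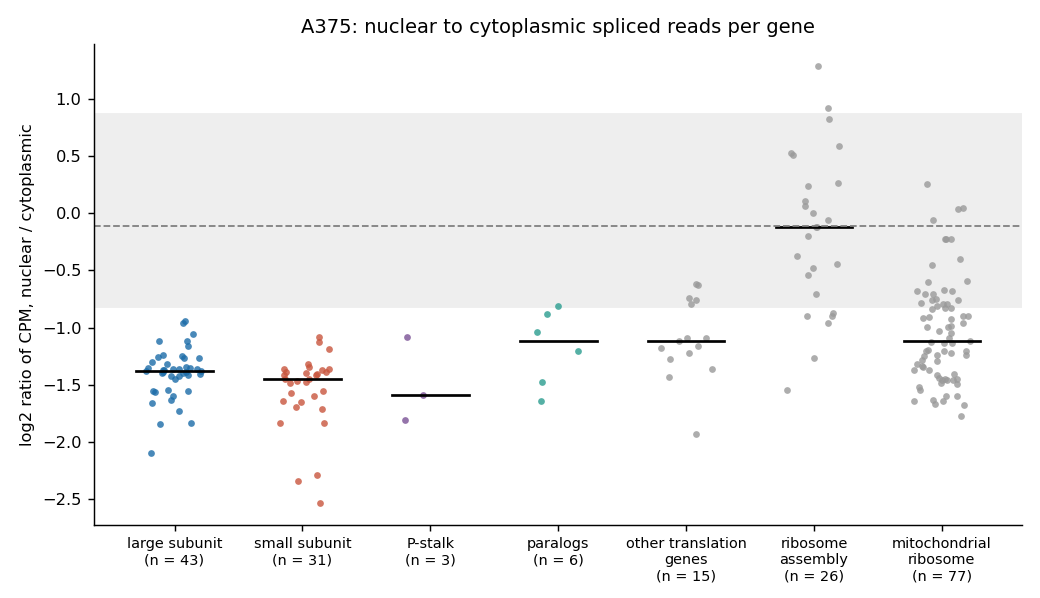
Each point is 1 gene in A375; the vertical axis is the log2 ratio of its nuclear to its cytoplasmic CPM, black bars are medians, the grey band is the interquartile range of all genes and the dashed line their median of -0.11. The 4 groups of ribosomal protein genes all lie below 0, between -2.54 and -0.81, while the ribosome assembly genes scatter around the median of all genes.

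The related lists differed in this ratio. The 77 mitochondrial ribosomal protein genes had a median of -1.12, and 15 translation genes, which include elongation factors and FAU, whose product is a ribosomal protein fused to a ubiquitin-like one, had -1.12 as well. The 26 ribosome assembly genes, which act mostly in the nucleolus and nucleus as proteins, had -0.12, close to all genes, and 8 regulators of ribosomal protein genes had 0.13. Against total RNA the ribosomal protein genes had a median log2 ratio of -0.62 in the nuclear and 0.80 in the cytoplasmic library. Total RNA holds both fractions, so opposite signs are built into this comparison and do not show what each fraction contributed.

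The 77 main genes have 2 to 9 introns (median 5) and a median coding length of 456 nt. Pearson's r with the log2 ratio was -0.005 for the number of introns, 0.056 for transcript length, -0.020 for coding length, 0.12 for median intron length, -0.19 for the number of introns that hold a small nucleolar RNA, -0.19 for the number of named pseudogenes and -0.044 for the level per intron in total RNA; these are descriptions across genes of the same 2 libraries. The 28 hosts of small nucleolar RNAs had a median of -1.45 (range -2.54 to -0.94) and the other 49 genes one of -1.39 (-1.83 to -1.05). RPSA, RPS2, RPS12, RPL12 and RPL13, the 5 with the lowest ratios, are all hosts. The 42 genes with a pyrimidine start had -1.41 and the 20 without one -1.39. Within genes, the first minus the last intron had a median difference of -0.0038 over 68 genes and was above 0 in 31, and introns of 1 gene spanned a median of 0.36 and at most 1.39 (RPL8) on the log2 scale. All but 1 of the 77 genes have processed pseudogenes named after them (median 10, at most 91), and how the authors placed reads that fit a gene and a copy is not given in the sources used here; processed pseudogenes hold the joined exons, so levels may include or lack such reads.

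Between the cell lines the main genes kept much of their order. Levels were compared in CPM per intron, here the median over the introns of 1 principal transcript of each gene. Introns of 1 gene can differ widely: those of RPL22 had 527, 5827 and 1230 reads in the A375 cytoplasmic library. The order of genes can therefore depend on this choice of scale. The highest in A375 was RPS27 (760.0) followed by RPS6 (650.9) and RPS21 (533.8). The highest in HEK293 was RPS18 (446.8) and in HUES66 RPL37A (474.1). By this median the lowest main gene was RPL22 in each line, at 28.6 in A375, 36.0 in HEK293 and 36.6 in HUES66. Over the 77 genes Pearson's r of the levels was 0.79 between A375 and HUES66, 0.64 between HEK293 and HUES66 and 0.59 between A375 and HEK293. The share of all junction reads was 10.1% in A375, 7.86% in HEK293 and 8.77% in HUES66. In bulk RNA, fewer cells of a kind and less RNA per cell cannot be told apart.

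HUES66 against A375 moved few members past 2-fold, with 3 of 83 lower and 1 higher, where 22.4% and 22.7% of 14027 genes were. The median log2 ratio was -0.15, beside 0.0047 over all genes. RPS21, a small-subunit protein, was at 2579 CPM in A375 and 999.4 in HUES66 (log2 ratio -1.37). The stress-linked paralog RPS27L, a p53 target gene, was at 248.6 and 97.6 CPM (-1.35), and RPL39 at 294.7 and 143.5 CPM (-1.04). RPS6, the substrate of the S6 kinases, was at -0.84. Higher in HUES66 were RPL39L (2.46), RPL5 (849.3 and 1621 CPM, 0.93), RPS29 (435.9 and 702.8 CPM, 0.69) and RPS26 (342.5 and 496.7 CPM, 0.54). RPL36AL (16.6 and 23.6 CPM) and RPS15 (400.3 and 561.8 CPM, 0.49) followed.

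HEK293 stood further from A375. Of 83 members 13 were more than 2-fold lower and 2 higher, where 19.2% and 18.9% of 12803 genes were, with a median of -0.37 beside 0.10 over all genes. RPL22L1 was lowest (-3.00), followed by RPS21 (702.1 CPM in HEK293, -1.88), RPS28 (232.7 against 652.9 CPM, -1.49), RPS27 (625.2 against 1701 CPM, -1.44) and RPS27L (-1.40). RPL7L1 was highest (1.47), followed by RPS10 (2099 against 1037 CPM, 1.02), RPL5 (0.90), RPS15 (0.85) and RPS4X (2658 against 1493 CPM, 0.83).
HUES66 against HEK293 had a median of 0.29, beside -0.097 over all genes, with 2 of 83 members more than 2-fold lower and 6 higher against a background of 20% and 20.1% of 13800 genes. The 2 were RPS4X (933.6 CPM in HUES66, -1.51) and RPL7L1 (-1.38); below 2-fold, RPL39 (-0.80), RPL23A (-0.78) and RPL26L1 (-0.75) were next. The 6 were RPL39L (3.09), RPL22L1 (2.69), RPS29 (1.39), RPS20 (1093 against 436.0 CPM, 1.33), RPSA (1601 against 799.6 CPM, 1.00) and RPLP0 (2054 against 1027 CPM, 1.00). Each line is 1 library, and in the libraries compared here line and library series cannot be told apart. The labels place HEK293 in the same series as the doxycycline-treated HUES66 control of 24 hr replicate 2. That control had 971.2 CPM for RPS4X and 90.4 for RPL22L1, beside 2658 and 15.4 in HEK293.

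The paralogs gave the largest differences. RPL22L1, the paralog of RPL22 (ENSG00000163584.17, chr3:170864875-170870483), had 123.5 CPM in A375, 15.4 in HEK293 and 99.7 in HUES66, while RPL22 had 199.5, 228.4 and 258.3 CPM. HEK293 thus had a ratio of 0.125 to A375 (0.104 to 0.148) for RPL22L1. RPL39L, the paralog of RPL39 on chromosome 3 (ENSG00000163923.9), had 3.57 CPM in A375 (30 reads), 2.29 in HEK293 (22 reads) and 20.0 in HUES66 (558 reads), opposite to RPL39, which was lowest in HUES66. RPL7L1 had 77.5, 215.4 and 82.9 CPM in the same order, RPL26L1 30.4, 43.4 and 25.8 CPM, and RPL36AL 16.6, 16.03 and 23.6 CPM. RPL3L, known as a muscle form of RPL3, was at or below 0.53 CPM in all 3 lines.

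**Figure D2:**
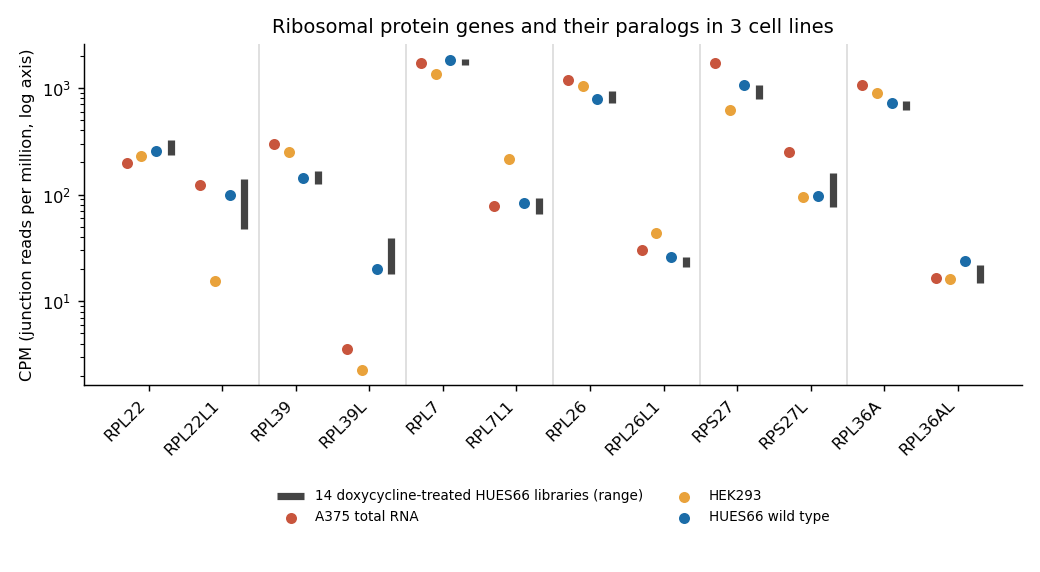
CPM on a log axis for 6 main genes, each beside its paralog, in A375 total RNA, HEK293 and wild-type HUES66 (1 library each, points) and the range over the 14 doxycycline-treated HUES66 libraries (bars). RPL22L1 is low in HEK293 (15.4 CPM) and RPL39L high in HUES66 (20.0 CPM), while RPL22 changes little.

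Total RBFOX2 knockdown left most ribosomal protein messages close to the control. With edgeR's quasi-likelihood test over 13824 genes (Benjamini-Hochberg adjustment, threshold 0.05, library set as a term), 2.26% of all genes changed, 1.09% higher and 1.16% lower. Of 85 members 3 did: RPL22L1 and RPS29 rose and RPS27L fell. The median log2 change of the members was 0.043, beside 0.0011 over all genes, and 71 of 85 were above 0, where 6965 of 13824 genes were. Changes of the 77 main genes ran from -0.10 to 0.14. The 4 knockdown contrasts share libraries, the controls in particular, and are not independent of each other.

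RPL22L1 had 63.4 normalised CPM in control and 93.7 in total KD at 48 hr, and 83.6 and 120.3 at 96 hr. The 24 hr total KD library, which has no control in its set, had 143.7, above the 108.4 and 112.0 of the N-short and N-long knockdowns beside it. Total KD was the highest arm in all 3 sets that hold it, though the control at 96 hr was close to total KD at 48 hr. The fitted log2 change was 0.53 (SE 0.074, adjusted p = 9.9e-06, edgeR). Total KD had 1.48 times the control at 48 hr (exact interval 1.35 to 1.62) and 1.44 times at 96 hr (1.32 to 1.56).

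RPS29, a zinc-binding small-subunit protein (chr14:49570984-49599164), had 637.8 normalised CPM in control and 684.7 in total KD at 48 hr, and 634.2 and 707.5 at 96 hr. Over all 14 libraries it ran from 538.6 to 769.0, so the sets differed by more than control and total KD within a set. It rose by a log2 of 0.14 (SE 0.037, adjusted p = 0.041), a call lost in 15 of 21 alternatives, among them DESeq2 and a fit without the 48 hr libraries, with adjusted p up to 0.34.
RPS27L (chr15:63125872-63158021) had 153.9 in control and 121.6 in total KD at 48 hr, but 98.9 and 97.4 at 96 hr, so the difference sat in the 48 hr set. It fell by 0.22 (SE 0.057, adjusted p = 0.031), and the call was lost in 7 of 21 alternatives; without the 48 hr total KD library the log2 change was -0.13 (adjusted p = 0.42). At an unadjusted p under 0.05 were 26 of 85 members (30.6%) and 13.1% of all genes.

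**Figure D3:**
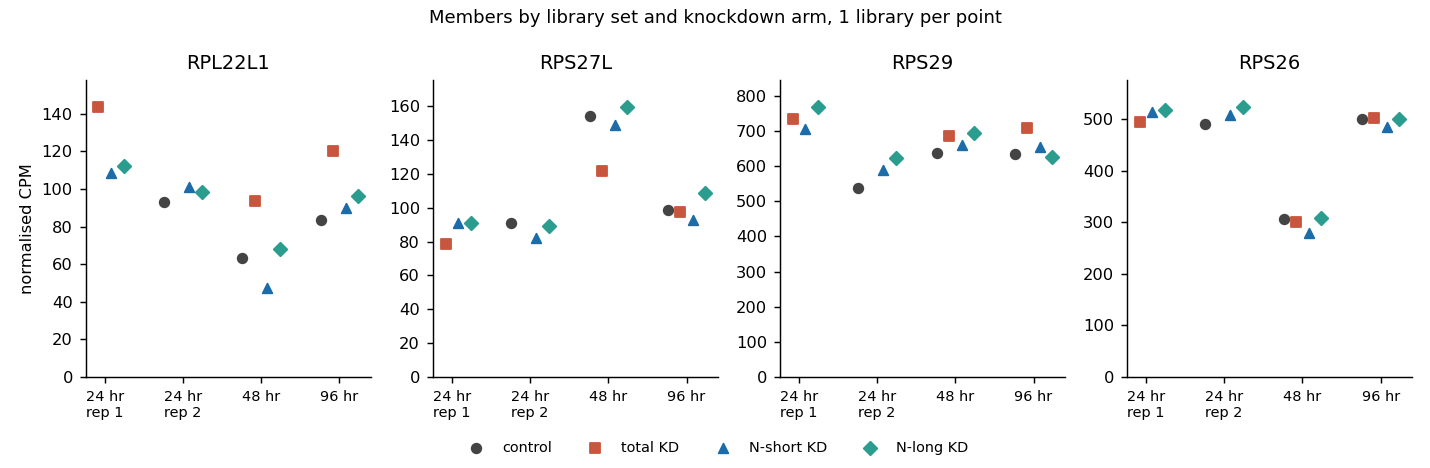
Normalised CPM of 4 members in the 14 doxycycline-treated HUES66 libraries, by library set (horizontal) and arm (colour and shape), 1 library per point, with vertical axes from 0. RPL22L1 is highest in total KD in each set that holds it, RPS27L is high and RPS26 low at 48 hr in all 4 arms, and RPS29 runs from 538.6 to 769.0, both at 24 hr.

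No member passed the test in the isoform knockdowns. In N-short KD 0 of 85 passed in edgeR (0.0145% of all genes did), with 3 at an unadjusted p under 0.05 (3.53%, beside 4.01% of all genes) and 0 in DESeq2, and the median log2 change was -0.012. In N-long KD 0 of 85 passed (background 0.0217%), with 6 at an unadjusted p under 0.05 (7.06%, beside 4.43% of all genes), 0 in DESeq2 and a median of 0.028. N-long KD against N-short KD also gave 0 (background 0.0145%; 0 in DESeq2), with 22 of 85 (25.9%) at an unadjusted p under 0.05, beside 5.17% of all genes. Here 79 of 85 members were above 0, with a median of 0.040, beside 7066 of 13824 genes and a median of 0.0023 over all genes. The member with the smallest p was RPL39, at 158.3, 170.6, 161.7 and 140.9 normalised CPM under N-long KD, each above the N-short KD library of its set (131.5, 153.8, 142.0 and 138.4). Its log2 difference was 0.16 (SE 0.039, edgeR adjusted p = 0.41). RPL22L1 was at 98.6, 68.1 and 96.0 normalised CPM in N-long KD, at 24, 48 and 96 hr, beside controls of 93.0, 63.4 and 83.6. In N-short KD it was at 100.9, 47.2 and 89.9. The 48 hr N-short KD library thus had 0.746 times its control (exact interval 0.670 to 0.829), while the other N-short KD libraries had 1.08 times theirs.

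Among related genes, total KD raised 1 of 26 ribosome assembly genes, FBL, the methyltransferase that modifies ribosomal RNA (log2 change 0.14, adjusted p = 0.018, edgeR). None of 15 translation genes, 8 regulators or 77 mitochondrial ribosomal protein genes tested passed (2, 1 and 3 had an unadjusted p under 0.05; DESeq2 was not read for these lists). MYC, a known activator of ribosome production, had a log2 change of 0.44 (adjusted p = 0.066).

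More members differed between the later times. Between 96 hr and 48 hr, with the knockdown arm as a term and 4 libraries at each time, 53 of 85 members changed in edgeR, 15 higher and 38 lower at 96 hr. Over all genes 59.7% of 13619 changed, 29.5% higher and 30.1% lower, so the members' count was near the background. The 2 times are 1 set each, so time and set cannot be told apart. Of the large subunit genes 22 of 43 fell and 3 rose, of the small subunit genes 13 of 31 fell and 6 rose, and of the 7 paralogs tested 4 rose and 2 fell. The median was -0.047, beside -0.0093 over all genes. The ribosomal protein share of junction reads was 8.33% to 8.61% at 48 hr, 7.62% to 7.93% at 96 hr and 8.23% to 8.89% at 24 hr.

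RPS26, a small-subunit protein near the messenger RNA exit (ENSG00000197728.11, chr12:56041351-56044697), rose most clearly. Its lowest, median and highest normalised CPM were 279.6, 303.4 and 307.7 at 48 hr and 485.0, 499.9 and 501.8 at 96 hr, so the groups did not overlap. Its log2 change was 0.73 (SE 0.028, edgeR adjusted p = 2.5e-17). The 6 libraries at 24 hr had 490.9 to 523.6, near those at 96 hr, so the 48 hr libraries stood apart from both.
RPL39L (log2 change -0.85) and RPS27L (-0.56) had the same shape upside down: RPL39L had 33.1 to 39.0 normalised CPM at 48 hr, 18.7 to 20.9 at 96 hr and 18.5 to 22.8 at 24 hr, and RPS27L had 121.6 to 159.6 at 48 hr against 92.4 to 108.5 and 78.6 to 91.2. RPL22L1 rose by 0.52, from 47.2 to 93.7 at 48 hr to 83.6 to 120.3 at 96 hr, with ranges that overlap because of the arms.

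Among the main genes that fell, RPL3, which reaches towards the peptidyl transferase centre, had 2521 to 2635 normalised CPM at 48 hr and 1931 to 2088 at 96 hr (log2 change -0.37). RPL13A, known for its part in the interferon-gated inhibition of translation, had 2374 to 2594 and 1951 to 2116 (-0.31). RPL13 (-0.28), RPL12 (-0.26), RPL9 (-0.25), RPS25 (-0.23) and RPL4 (-0.21) completed the 10 with the smallest adjusted p. All 10 kept their call in each of 13 alternatives.
Set against the 10 other doxycycline libraries, the 48 hr libraries all lay higher in 6 of 84 ribosomal protein genes (RPL3, RPL4, RPL9, RPL39L, RPS25 and RPS27L) and all lower in 7 (RPL14, RPL19, RPL26L1, RPLP1, RPS6, RPS12 and RPS26). Over 13824 genes the shares were 11.2% and 12.2%.

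Ribosome assembly genes went another way from the main genes. Of 26, 24 rose from 48 to 96 hr and none fell, with a median log2 change of 0.47; UTP20 (0.90), TSR1 (0.87) and PES1 (0.83), processing factors of ribosomal RNA precursors, rose most. At 48 hr 18 of the 26 had all libraries below the 10 others. Of the mitochondrial ribosomal protein genes 43 of 77 rose and 3 fell, and of the 15 translation genes 5 rose and 9 fell. The summed CPM of 7 stem cell markers moved with time as well. It was 2960 to 3096 at 48 hr and 3545 to 4303 at 96 hr, without overlap, and 2642 to 3498 at 24 hr. Over the doxycycline libraries DNMT3B alone ran from 1086 to 2341 CPM and POU5F1 from 872.2 to 1219, while SOX2 had no reads. A shift of the sum thus need not hold for each marker. Differentiation markers had a sum of 0.417 to 0.989 CPM over 8 genes at 48 hr, 0.524 to 1.89 at 96 hr and 0.281 to 1.04 at 24 hr. The part of either in the result was not tested.

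**Figure D4:**
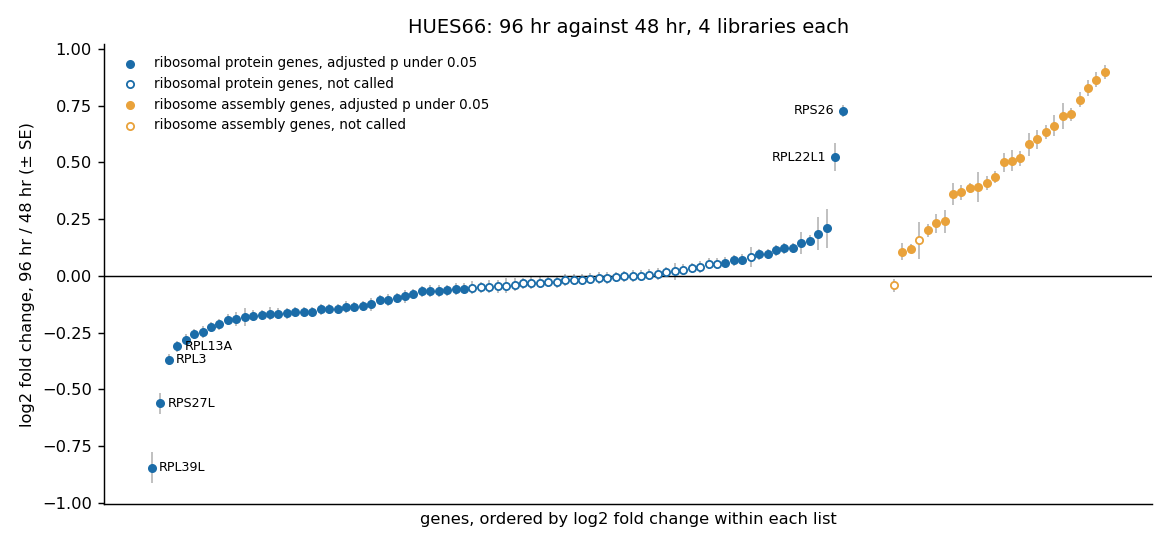
Log2 fold change of 96 hr against 48 hr with its SE for 83 ribosomal protein genes (blue; RPL3L, near 0 reads, is left out) and 26 ribosome assembly genes (orange), ordered by value; filled points passed an adjusted p of 0.05. Most ribosomal protein genes lie within a narrow band around 0, with RPS26 at 0.73 and RPL39L at -0.85, while 25 of 26 assembly genes lie above 0.

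RPS24, a small-subunit protein gene (ENSG00000138326.19, chr10:78033732-78056813), carried the one cassette exon of a member that responded to knockdown. The exon is 22 nt long (chr10:78040204-78040225, plus strand, GRCh38), and both of its forms are annotated as coding, with different ends. Both sequences begin with the last 30 bases of the fourth exon; the skipped form is given to its stop codon and the included form to the end of the 22 nt exon. The stop codon is in capitals, and the pair shows that inclusion moves it.
RPS24 exon skipped: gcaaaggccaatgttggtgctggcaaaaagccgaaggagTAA
RPS24 exon included: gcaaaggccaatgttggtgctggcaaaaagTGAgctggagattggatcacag
Inclusion was 16.6% in A375 total RNA (Wilson 95% interval 15.6% to 17.7%), 16.6% in its nuclear and 16.1% in its cytoplasmic fraction, 38.6% in HEK293 (37.1% to 40.2%) and 37.1% in wild-type HUES66 (36.3% to 37.9%). A375 was thus below the other lines by more than the intervals, and its fractions were alike within theirs.

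Total KD lowered inclusion of this exon. It was 51.4% in control and 37.2% in total KD at 48 hr, and 30.1% and 19.7% at 96 hr. At 24 hr total KD had 29.6%, beside 34.8% and 33.2% under N-short and N-long knockdown of its set. Total KD was the lowest arm in every set that holds it. The mean difference from control was -12.3 ± 2.69 percentage points (SD, n = 2 sets), a log2 odds change of -0.72 (SE 0.070, edgeR adjusted p = 7.8e-11 over 5711 exons, of which 1.4% passed). The authors' deposited table for total KD at 48 hr gives an inclusion difference of 0.141 (control minus knockdown, adjusted p = 0.0387), the only event of a member below 0.05 among their 9 comparisons; the authors' deposited tables give 0.074 at 24 hr (adjusted p = 0.684) and 0.094 at 96 hr (adjusted p = 0.131). Each of the authors' deposited tables lists this exon in 2 events, and these are the ones with the smaller p. For the other event the authors' deposited tables give 0.135 at 48 hr (adjusted p = 0.895), 0.020 at 24 hr (adjusted p = 1.0) and, in the opposite direction, -0.045 at 96 hr (adjusted p = 0.897).

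N-long KD had 34.1%, 43.5% and 23.0% inclusion in the 3 sets with a control, whose controls had 37.1%, 51.4% and 30.1%. The mean difference was -6.01 ± 2.64 points (SD, n = 3 sets; log2 odds change -0.38, SE 0.063, edgeR adjusted p = 1.2e-04, where 0.56% of exons passed). N-short KD had 36.5%, 50.6% and 30.7% in these sets and stayed within -0.90 to 0.63 points of the control, with a mean of -0.29 ± 0.81 (log2 odds change -0.076, edgeR adjusted p = 1.0, unadjusted p = 0.23; 0 of 5711 exons passed in edgeR and 0 in limma).
N-long KD was below N-short KD in 4 of 4 sets, with differences of -1.55, -2.39, -7.04 and -7.73 points (log2 odds difference -0.30, SE 0.057, edgeR adjusted p = 9.6e-04; background 0.403%). This last call was lost without either 96 hr library of the contrast (adjusted p = 0.0547 without N-long KD and 0.061 without N-short KD) and, at a log2 odds difference of the same sign, in the fit without the replicate block. The call also depended on the tool: limma on log2 ratios, which called 13 exons in total KD and 0 in the other contrasts, gave adjusted p of 0.508 in total KD, 0.885 in N-long KD and 0.915 for N-long KD against N-short KD, with log2 odds changes of -0.72, -0.38 and -0.31. The exon also differed between times, with 96 hr minus 48 hr at -21.4 to -17.6 points in the 4 arms. For the 2 events of this exon in N-short KD, the authors' deposited tables give 0.015 and 0.069 at 24 hr (control minus knockdown). They give -0.076 and 0.008 at 48 hr and 0.03 and -0.008 at 96 hr. In N-long KD they give 0.037 and 0.098 at 24 hr, 0.078 and 0.065 at 48 hr and 0.205 and 0.064 at 96 hr. None of these had an adjusted p under 0.05 there.

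**Figure D5:**
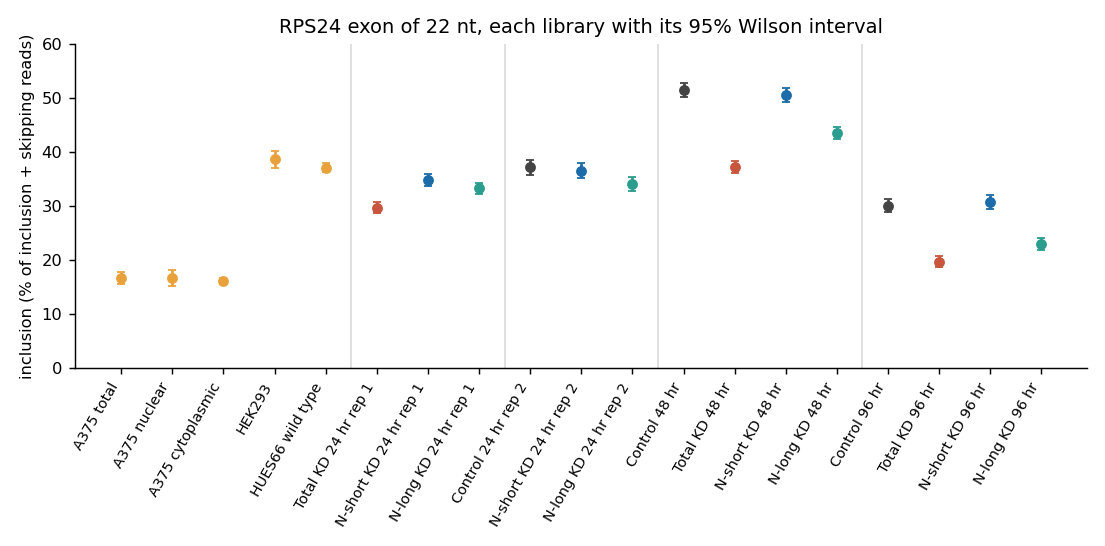
Inclusion of the 22 nt exon of RPS24 in percent of inclusion plus skipping reads, in all 19 libraries, each with its 95% Wilson interval (counting error only). A375 libraries lie near 16%, and in each set the total KD library, where there is one, is the lowest.

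The other 5 tested exons of members did not pass in any contrast: the 98 and 88 nt exons of RPL17, which overlap, a 61 nt exon of RPL37A and the 106 and 222 nt exons of RPL7L1, which start at the same base. Of 110 candidate cassette exons in members, 69 had inclusion junctions that were balanced, and these fell into 13 that enter an annotated decay transcript by a junction outside all coding ones, 8 whose skipping junction is in no coding transcript, 43 with coding forms both ways and 5 others. Unproductive exons were rare in the RNA. Of the 12 in ribosomal protein genes, 11 were included in under 1% of the pooled reads; the exception, a 245 nt exon of RPS24, rested on 32 inclusion and 42 skipping reads. Of the 8 whose skipping is unproductive, 7 were included above 98%, and the exception was the 106 nt exon of RPL7L1 at 95.2%.

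RPS9, a small-subunit protein, had the most used unproductive exon by reads, 172 nt long (chr19:54206553-54206724). Its first bases, to the stop codon in capitals, show how soon the frame ends.
RPS9 exon to its stop: ccctcggaggTGA
It was included in 3.74% of reads in HEK293 (2.76% to 5.06%), 1.53% in A375 and 0.55% in wild-type HUES66, and the A375 fractions had 1.52% (nuclear) and 1.36% (cytoplasmic).

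Splice junctions found only in decay transcripts took 0.0279% to 0.0506% of ribosomal protein junction reads in the 19 libraries, below the 0.189% to 0.307% over all genes. They were 60 of the 753 annotated junctions with reads and lay in 31 genes. In A375 the share was 0.0460% in the nuclear fraction (Wilson interval 0.0399% to 0.0530%) and 0.0443% in the cytoplasmic, where the share over all genes was 0.254% and 0.200%. RNAs that decay fast are under-counted at steady state. RPL22L1 was the one member with a decay share of at least 5% of its junction reads in HUES66 (5.40%), and RPL7L1 followed at 0.693%.

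In RPL22L1 the reads came from an acceptor 67 nt upstream of the coding one, in the intron chr3:170868202-170868297 in place of chr3:170868135-170868297 (minus strand). The sequences show the joined exons at this point; the 67 added bases are in capitals, and the decay form is given to its stop codon, which ends it.
RPL22L1 coding acceptor: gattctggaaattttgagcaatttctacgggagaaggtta
RPL22L1 decay acceptor: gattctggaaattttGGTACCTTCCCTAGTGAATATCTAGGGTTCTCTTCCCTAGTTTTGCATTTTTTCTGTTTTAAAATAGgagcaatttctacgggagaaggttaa
The decay acceptor took 8.65% of the reads of this donor in A375 (6.19% to 11.95%), 13.3% in wild-type HUES66 and 44.9% in HEK293 (31.9% to 58.7%, from 22 reads), the line in which the gene's level was lowest. In the A375 fractions it took 11.3% of nuclear reads (7.75% to 16.1%) and 6.87% of cytoplasmic reads (5.72% to 8.22%), intervals that overlap.

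Across the doxycycline-treated libraries the same acceptor ran from 10.7% to 22.2%. At 48 hr it was 20.1% in control and 15.2% in total KD, and at 96 hr 17.9% and 12.8%, so it was lower where the gene's level was higher. As a share of all reads of the gene the log2 odds change in total KD was -0.46 (SE 0.20, unadjusted p = 0.020, edgeR adjusted p = 0.61), which did not pass. Of 3 members tested for this share, 0 passed in any of the 4 contrasts in edgeR (background 0.111%, 0, 0 and 0.0554% of 1806 genes), with 2 at an unadjusted p under 0.05 in total KD, RPL22L1 and RPS19BP1, and 0 in the others.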

How the data were processed

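Ribosomal RNA-depleted RNA of 19 cell line libraries was sequenced, and the authors deposited 1 junction table per library, which holds a raw count of spliced reads for each junction. Per the submitters' processing notes STAR 2.7.1, SAMtools 1.9 and hg38 were used; junction extraction settings are not given in the sources used here. The authors' 9 rMATS tables give, per the file headers, inclusion differences on a scale of -1 to 1 and p-values; 69 per-library columns of these tables were not used.

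Junctions were matched to GENCODE 29 and summed per gene (96.4% to 98.0% of the reads of each library). Readthrough genes received only junctions found in no other gene. CPM are reads scaled to the library's total junction reads; ratios of single libraries used a pseudocount of 0.5 reads, genes with at least 20 reads, exact or Wilson 95% intervals (counting error only) and 2-fold as the mark.

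One edgeR model (4.0.16, under R 4.3.3; quasi-likelihood test, TMM, filterByExpr, terms for library set and arm; Benjamini-Hochberg, 0.05) covered the 14 doxycycline libraries; 96 hr against 48 hr used 8 libraries and a term for arm. Library set came from the labels, which place the 24 hr replicates in different library series. Residuals of libraries of the same set correlated with a median of 0.79 over 18 pairs and those of different sets with -0.29 over 55. Cassette exons (up to 1000 nt, a mean of at least 20 reads, pooled inclusion of 2% to 98%, rarer inclusion junction at least 10% of the commoner) and decay-only shares (at least 0.5%) were tested as paired counts; the 10% rule was added after the data were seen. Normalised CPM use TMM factors. Alternatives were DESeq2 1.42.0, limma 3.58.1, other filters, scalings and blocks, and leaving out each library. The scripts were tested on simulated data.

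Genes named are those past a test (or the 10 with smallest adjusted p), the 5 highest and 5 lowest ratios with at least 200 reads, the paralogs and fixed examples. A gene that this rule would name is not reported here. Members and lists were chosen with earlier results of these data known. Sequences are from GENCODE transcripts and RefSeq. The wild-type HUES66 library, whose description carries the controls' name, entered tests only as an alternative.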

Additional observations from a re-analysis of the deposited data

Results flagged for a closer look

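RPL41, which encodes the shortest protein of the large subunit, moved in opposite directions in the 2 sets where control and total KD meet. In the 96 hr set it had 356.3 normalised CPM in control and 415.0 in total KD, a ratio of 1.16 (exact interval 1.12 to 1.21). In the 48 hr set it had 413.1 and 356.9, a ratio of 0.864 (0.831 to 0.898). It was picked out because the 2 counting intervals lie on opposite sides of no change and more than 1.1-fold from it; the difference between the sets was not tested, and with 1 library per arm and set there is no replicate of either ratio.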

How the results depend on the processing

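No called gene or exon that was followed singly changed its direction under the alternatives run. Between the later times only the 10 members with the smallest adjusted p were followed in this way. The direction of the other called members was not checked. The members' median log2 change in N-short KD, -0.012 with 23 of 85 above 0, became 0.000396 with 43 of 84 above 0 without the replicate block. Over all genes 6732 of 13824 were above 0 with the block. The count of 3 members in total KD was 5 with no filter on low counts (RPS7 and RPL29 added) and 1 (RPL22L1) without the replicate block, with time point alone as the term, and it was 1 to 4 when single libraries were left out; it fell to 1 without the control or total KD library at 48 hr, or the 24 hr replicate 2 library of control, N-short KD or N-long KD. RPL22L1 kept its call in 21 of 21 alternatives, with adjusted p up to 0.0141. With DESeq2 the 3 were RPL22L1, RPS27L and RPS7.

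In N-long KD leaving out single libraries gave 0 to 1 (RPS29, without N-long KD at 96 hr). N-long KD against N-short KD gave 1 (RPL39) with no filter on low counts. N-short KD gave 0 in 21 of 21. For 96 hr against 48 hr the 53 members became 43 with DESeq2 and 46 without the replicate block, here the arm, and 43 to 53 when single libraries were left out; without the ribosomal protein genes in the scaling the split was 14 higher and 38 lower. The set pairing was tested by this block, and it changed no other gene call.

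The RPS24 exon was the 1 exon called in 3 of the 4 contrasts (all but N-short KD against control); it became 0 with limma in each, and 2 with no balance filter, the second being a 25 nt RPS24 exon that shares its skipping reads. For N-long KD against N-short KD it became 0 without the replicate block (adjusted p = 0.135) and 0 to 1 when single libraries were left out. Counting all junctions outside coding transcripts as unproductive gave 1 member, RPL37, against the control and also against N-short KD in the N-long libraries; RPL37 has a junction that was read in 9 libraries and at 0 in 10.

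TMM factors in place of total reads moved the median log2 ratios to -1.44 for the A375 fractions, -0.46 for HEK293 against A375 and 0.40 for HUES66 against HEK293, where they moved the median of all genes by 0.12. The causes of these changes were not tested. Depth limits the rare decay junctions most: in HEK293 the RPL22L1 acceptor rests on 22 reads.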

Other observations

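Some junctions of members were read in part of the libraries and not at all in the others, although the genes were abundant in all. By a rule set after the values were seen (0 reads in at least 9 of 19 libraries and at least 50 reads in each of the others), there were 5, in RPL37, RPS23, RPS24 and RPL8. The RPL37 junction chr5:40834607-40835018 (GRCh38), in no coding transcript, had 60 to 551 reads in 9 libraries and 0 in 10, where the gene had 636 to 954 CPM. Libraries of 1 line and even of 1 set differed in it: A375 had 551 reads in the cytoplasmic fraction and 0 in total and nuclear RNA, and at 96 hr N-short KD had 0 beside 115, 134 and 130 in the other arms. The RPS23 junction chr5:82276135-82276450, in a coding transcript, had 337 to 1394 reads in 9 libraries and 0 in 10. At 48 hr it had 560, 419 and 416 reads in the 3 knockdown libraries and 0 in control. The RPS24 junction chr10:78037305-78037438, also in a coding transcript, had 105 to 347 reads in 10 libraries and 0 in 9, where the gene had 1112 to 2531 CPM. The 2 junctions of RPL8 had reads in 7 and 2 libraries.

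The 106 nt exon of RPL7L1, whose skipping junction is in no coding transcript, was included at 85.7%, 88.4% and 85.3% in the control, N-short KD and N-long KD libraries at 48 hr and at 95.2% in total KD. At 96 hr it was 97.9% in control and 96.6% in total KD. Its change in total KD did not pass (log2 odds change 1.08, SE 0.52, edgeR adjusted p = 0.60).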
